A study of Mus musculus with 2 samples.

Results

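Genes of neutrophils and monocytes were followed cell by cell in 2 sections of mouse liver: Csf3r, Cxcr2, Ccr2, Ly6c2, Ncf1 and Cybb, which are 6 of the 500 genes of the imaging panel. They were taken by name, as chemokine and cytokine receptors, a surface protein and oxidase subunits of these cells, and do not include every such gene on the panel, such as Cyba or Cxcr4. The transcripts were read by MERFISH, which decodes single RNA molecules in a tissue section by repeated imaging and assigns them to segmented cells. Both sections were 10-µm cryosections of frozen liver and formed 1 group, tagged 2d and numbered as replicates 1 and 2. That tag was not interpreted, and no label gives a strain, an age, a genotype or a treatment, or says whether the sections came from separate animals. The design text of the series speaks of treated mice with liver metastases, which matches neither label, so no treatment was assigned.

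Neutrophils and classical monocytes are short-lived blood leukocytes that mature in the bone marrow and enter the liver through its sinusoids. Csf3r encodes the receptor for granulocyte colony-stimulating factor, which drives neutrophil production, and Cxcr2 the chemokine receptor that draws neutrophils into tissue. Ccr2 encodes the chemokine receptor by which classical monocytes leave the marrow, and Ly6c2 a surface protein that is high on classical mouse monocytes and lower on neutrophils. Ncf1 and Cybb encode p47phox, a cytosolic organiser, and the membrane-bound catalytic subunit of the phagocyte NADPH oxidase, which both cell types use to make superoxide. Csf3r and Cxcr2 are called the neutrophil side below, and Ccr2 and Ly6c2 the monocyte side.

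The promoter windows of all 6 genes are shown because PU.1, the transcription factor of myeloid cells, recognises a core spelled GAGGAA, which reads TTCCTC when it lies on the opposite strand. Capitals mark each match in these 300-base windows of RefSeq (GRCm38.p6), from 250 bases before to 50 after the gene's start and written along the gene's own strand.
Csf3r, chr4:126024409-126024708, plus strand: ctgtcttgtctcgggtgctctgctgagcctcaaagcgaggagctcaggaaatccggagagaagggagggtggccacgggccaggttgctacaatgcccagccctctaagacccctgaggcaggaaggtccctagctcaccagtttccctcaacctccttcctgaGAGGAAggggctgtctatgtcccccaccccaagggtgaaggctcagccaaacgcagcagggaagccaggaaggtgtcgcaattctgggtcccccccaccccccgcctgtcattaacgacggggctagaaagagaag
Cxcr2, chr1:74153744-74154043, plus strand: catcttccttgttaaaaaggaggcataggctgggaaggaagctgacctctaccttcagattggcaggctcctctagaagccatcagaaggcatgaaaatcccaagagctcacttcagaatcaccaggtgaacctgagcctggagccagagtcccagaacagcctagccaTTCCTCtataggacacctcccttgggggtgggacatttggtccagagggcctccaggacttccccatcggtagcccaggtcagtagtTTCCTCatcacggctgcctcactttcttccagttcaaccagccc
Ccr2, chr9:124101933-124102232, plus strand: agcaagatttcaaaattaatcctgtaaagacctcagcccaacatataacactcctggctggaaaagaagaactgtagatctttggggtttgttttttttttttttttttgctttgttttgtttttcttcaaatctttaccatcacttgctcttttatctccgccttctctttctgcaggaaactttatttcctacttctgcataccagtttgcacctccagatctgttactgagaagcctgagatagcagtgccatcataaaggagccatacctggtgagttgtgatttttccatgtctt
Ly6c2, chr15:75111922-75112221, minus strand: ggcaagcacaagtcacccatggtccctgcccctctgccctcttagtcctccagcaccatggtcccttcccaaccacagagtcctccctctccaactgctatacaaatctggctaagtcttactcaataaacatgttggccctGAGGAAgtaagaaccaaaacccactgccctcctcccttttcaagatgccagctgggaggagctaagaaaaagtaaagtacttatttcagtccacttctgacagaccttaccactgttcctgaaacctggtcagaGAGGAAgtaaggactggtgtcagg
Ncf1, chr5:134229576-134229875, minus strand: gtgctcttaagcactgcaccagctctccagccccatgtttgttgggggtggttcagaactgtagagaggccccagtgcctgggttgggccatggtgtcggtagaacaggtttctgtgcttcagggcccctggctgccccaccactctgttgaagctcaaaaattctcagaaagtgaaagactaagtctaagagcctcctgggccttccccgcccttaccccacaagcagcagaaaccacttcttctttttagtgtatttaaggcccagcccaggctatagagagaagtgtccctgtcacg
Cybb, chrX:9469275-9469574, minus strand: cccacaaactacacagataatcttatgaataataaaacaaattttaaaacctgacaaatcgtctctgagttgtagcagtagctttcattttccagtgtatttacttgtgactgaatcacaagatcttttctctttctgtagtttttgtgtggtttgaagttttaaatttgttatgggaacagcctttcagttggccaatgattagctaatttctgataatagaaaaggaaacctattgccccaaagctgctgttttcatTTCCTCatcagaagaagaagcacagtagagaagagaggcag
The core was found once in Csf3r, 2 times in Cxcr2, 2 times in Ly6c2 and once in Cybb. The windows of Ccr2 and Ncf1 held no match. Ly6c2 had 2 windows listed, of which only the first is shown and counted. Of 27025 genes with such a window, 28.3% held at least 1 match on either strand, so the letters alone are common, and a match is not a binding site.

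Section 1 held 26037 segmented cells and section 2 held 85929. Cells were kept from 10 gene counts and 50 cubic µm upward, 9209 (35.4%) in section 1 and 16290 (19.0%) in section 2, with medians of 27 and 15 counts. The sections differed in depth, and values are given for each. They shared 0 cell identifiers. The 50 blank barcodes, which match no gene, show how many counts decoding errors can give: the highest held 268 counts in kept cells of section 1 and 410 in section 2, and the median blank 28 and 6. Intervals are 95% intervals (exact Poisson for counts and levels, exact binomial for shares) and cover counting error only.

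All 6 genes stood at a higher level in section 1, Ly6c2 by only 1.01 times and the other 5 by 1.62 times or more. Levels are counts per 10000 gene counts of kept cells and are compared for one gene at a time, since probes differ between genes. Among the other 494 genes, 70.9% had the higher level in section 1 by any margin, and their share at a given ratio was not counted. Csf3r held 721 counts in section 1, a level of 18.5, and 127 in section 2, a level of 4.24. Cybb held 399 and 57 counts, at levels of 10.2 and 1.90. Ccr2 held 119 and 21 counts, at 3.05 and 0.70 per 10000. The level in section 1 was thus 4.36 times that of section 2 for Csf3r, 5.38 times for Cybb and 4.35 times for Ccr2. Ncf1 held 1158 and 548 counts, at 29.7 and 18.3 per 10000, a ratio of 1.62. Cxcr2 held 115 and 32 counts, at 2.95 and 1.07 per 10000, a ratio of 2.76. Ly6c2 stood apart from the other 5 with 368 and 279 counts and nearly equal levels of 9.43 and 9.31. With 1 section each, these ratios have no replicate check.

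Several of these totals lay within the range of the blanks. In section 1 no blank reached the counts of Csf3r, Ly6c2, Ncf1 or Cybb, while 6 of 50 blanks reached those of Cxcr2 and 6 those of Ccr2. In section 2, 11 blanks reached the count of Ccr2, 4 that of Cxcr2, 2 that of Cybb and 1 each those of Csf3r and Ly6c2. Only Ncf1 exceeded all 50 blanks in both sections. Ly6c1, the close relative of Ly6c2 on the panel, held 33 kept counts in section 1 and 2 in section 2, far fewer than Ly6c2. Whether the Ly6c2 probes also read Ly6c1 RNA is not given in the sources used here.

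Most cells with one of these genes held a single molecule of it. Csf3r was detected in 439 kept cells of section 1 (4.77%, 4.34 to 5.22), of which 295 held 1 count, 72 held 2 and 72 held 3 or more, with at most 10. In section 2 it was detected in 120 cells (0.737%), of which 114 held 1 count. Ncf1 was detected in 622 cells of section 1 (6.75%) and 457 of section 2 (2.81%), and Ly6c2 in 238 (2.58%) and 246 (1.51%). The share of cells with a count was higher in section 1 for 6 of 6 genes, as it was for 92.3% of the other 494 genes. After each cell was thinned to 10 counts, to set both sections at one depth, the order stayed for 5 genes and turned for Ly6c2, at 0.601% in section 1 and 0.892% in section 2. The thinned shares of Csf3r were 1.45% and 0.404%, and those of Cybb 0.752% and 0.162%.

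Most pairs of the 6 genes, but not Cxcr2 with Ccr2, met in the same cells more often than cells of the same depth would give. For each pair, the cells with both genes were set against the number expected if the genes fell independently among cells with a similar total count. In section 1, 48 cells held both Csf3r and Cxcr2 against 8.85 expected, a ratio of 5.43 (4.00 to 7.19), and 219 held Csf3r and Ncf1 against 52.5, a ratio of 4.17. Csf3r was thus present in 48 of the 96 Cxcr2 cells and in 35.2% of the Ncf1 cells. The oxidase pair, Ncf1 and Cybb, met in 141 cells against 38.5 expected, a ratio of 3.66 (3.08 to 4.32). In section 2, with fewer molecules per cell, 25 cells held Csf3r and Ncf1 against 4.07 expected, a ratio of 6.14 (3.98 to 9.07), and 8 held Ncf1 and Cybb against 1.93, a ratio of 4.15. Csf3r and Cxcr2 met in only 2 cells there, and Cxcr2 with Ccr2, Cxcr2 with Cybb and Ccr2 with Cybb in none.

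Ly6c2 met the neutrophil-side genes and Ccr2 at ratios with overlapping intervals. In section 1 it shared 87 cells with Csf3r against 23.9 expected, a ratio of 3.64 (2.92 to 4.49), and 28 with Cxcr2 against 5.70, a ratio of 4.91 (3.27 to 7.10). With Ccr2 it shared 16 cells against 4.37, a ratio of 3.66 (2.09 to 5.94). In section 2 it shared 8 cells with Csf3r against 2.16 expected, a ratio of 3.70 (1.60 to 7.29). Its strongest count in section 2 was with Ncf1, 45 cells against 7.83 expected, a ratio of 5.75, beside 126 cells and 3.77 in section 1.

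Apart from its pair with Ly6c2, Ccr2 had lower ratios in section 1 than any pair without it. It met Csf3r in 19 cells, a ratio of 2.63, Cybb in 12, a ratio of 2.31, and Ncf1 in 22, a ratio of 2.17. With Cxcr2 it shared 1 cell against 1.65 expected, a ratio of 0.605 (0.0153 to 3.37), and in section 2 none against 0.0466, which is too few to tell. Ccr2 cells of section 1 also held blank barcodes more often than expected, 50 joint events against 31.4 and a ratio of 1.59 (1.18 to 2.10). The blank ratios of the other 5 genes in section 1 ran from 0.826 to 0.982, each with an interval that held 1. In section 1, 46.5% of Ccr2 transcripts lay outside segmented cells (40.5 to 52.6), against 15.3% to 21.3% for the other 5 genes and 40.1% of all gene transcripts. In section 2 the same share was 21.6% for Ccr2 and 21.2% to 32.2% for the others. The part that these features play in the Ccr2 ratios was not tested.

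Counted over all 15 pairs, the lower Poisson bound lay above the expected number in both sections for 7 pairs, in section 1 for 14, all but Cxcr2 with Ccr2, and in section 2 for 7. By the same rule 4.28% of the 2964 pairs of a member with any other panel gene passed in both sections, 14.7% in section 1 and 6.07% in section 2. The 7 pairs were Csf3r with Ly6c2, Ncf1 and Cybb, Cxcr2 with Ncf1, Ly6c2 with Ncf1 and Cybb, and Ncf1 with Cybb. The median ratio of a member to the other genes was between 0.899 and 1.09 over the members and sections.

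**Figure D1:**
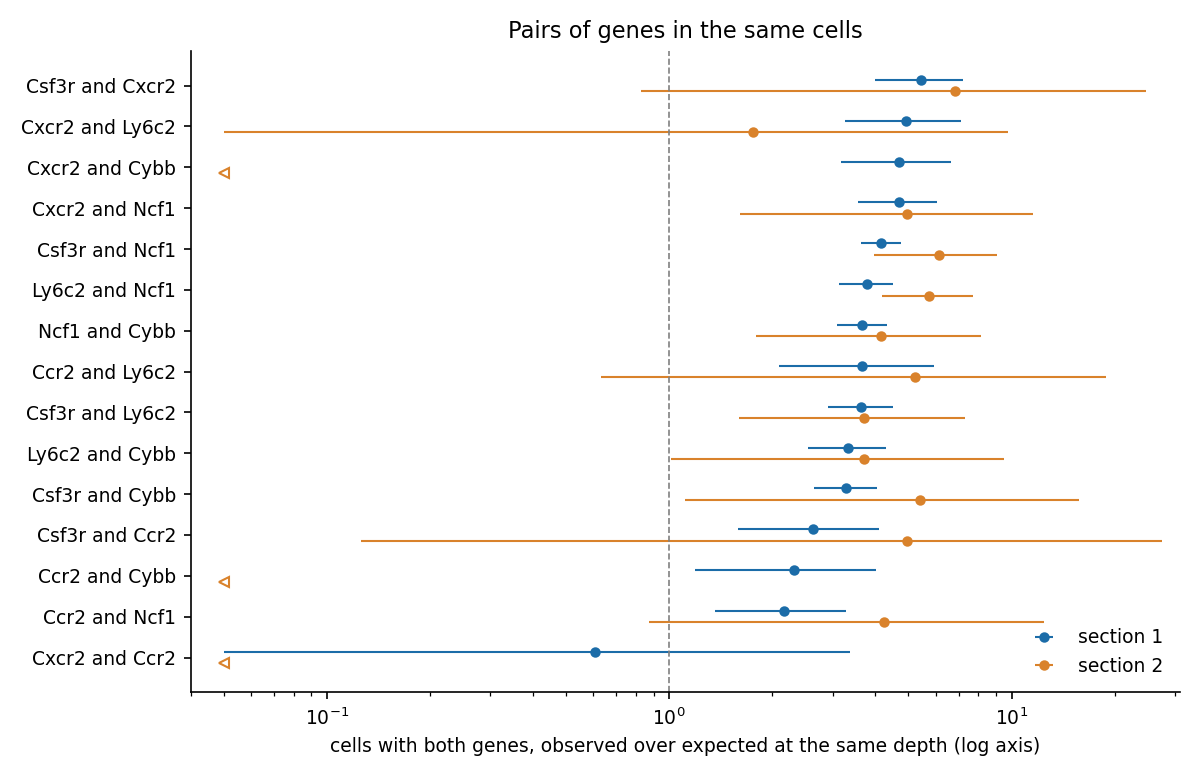
Ratio of observed to expected cells with both genes for the 15 pairs, on a log axis, in section 1 (blue) and section 2 (orange), with 95% Poisson intervals, drawn no lower than 0.05. The dashed line marks a ratio of 1 and open triangles mark pairs with no joint cell; 14 of the section 1 intervals lie above 1, and Cxcr2 with Ccr2 is the exception.

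Cell volume and class were examined after the data had been seen. In section 1, among cells at or under the median volume, Csf3r met Cxcr2 in 8 cells at a ratio of 6.15, Ncf1 in 51 at 5.77 and Ly6c2 in 16 at 4.39. The ratio was lower than in all kept cells for Csf3r with Cybb (3.00 against 3.29), Cxcr2 with Cybb (4.29 against 4.69) and Cxcr2 with Ccr2 (0 against 0.605). It was higher for the other pairs. In section 2 Csf3r met Ly6c2 in 1 such cell at 1.54, against 3.70 in all kept cells, and Ly6c2 met Ncf1 in 19 at 7.21, against 5.75. By the rule of both sections, 3 of the 15 pairs passed in these smaller cells. The share of pairs with other panel genes that passed there was not counted. Within the 624 neutrophil_monocyte-like cells of section 1 (a class defined below without these genes) every interval held 1. Pairs with Ccr2 there ran from 0 with Cxcr2 to 1.86 with Ly6c2. In the same class of section 2, Ly6c2 met Ncf1 in 7 cells at 3.23 (1.30 to 6.65). Csf3r met Ncf1 in 5 of those cells at 2.63 (0.854 to 6.14). In section 1 Csf3r met Cxcr2 in this class at 1.30 (0.782 to 2.03), Ncf1 at 1.21 (0.951 to 1.53) and Ly6c2 at 1.07 (0.764 to 1.47). Of the 15 pairs, 0 passed in both sections. The expected numbers in this class of section 2 were at most 2.17, so few pairs could pass. The share of pairs with other panel genes was not counted in this class either.

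The more Csf3r molecules a cell of section 1 held, the more often it held Ncf1. Ncf1 was present in 4.60% of cells with no Csf3r count, 42.0% with 1 count (36.3 to 47.9), 62.5% with 2 (50.3 to 73.6) and 69.4% with 3 or more (57.5 to 79.8). Ly6c2 was present in 1.72%, 12.9%, 33.3% and 34.7% of the same cells. Cxcr2 was present in 0.547%, 8.14%, 13.9% and 19.4%. Cybb was present in 2.22%, 19.0%, 29.2% and 19.4%, and Ccr2 in 0.981%, 4.75%, 4.17% and 2.78%. The median total count of these cells also climbed, from 26 over 46 and 73 to 92, and its part in these shares was not tested. The levels per 10000 counts, which divide by depth, were 16.9, 137, 197 and 155 for Ncf1 and 6.0, 25.2, 69.8 and 62.2 for Ly6c2. In section 2 only 5 cells held 2 Csf3r counts, and Ncf1 was present in 2.67% of cells with none and 20.2% of cells with 1.

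**Figure D2:**
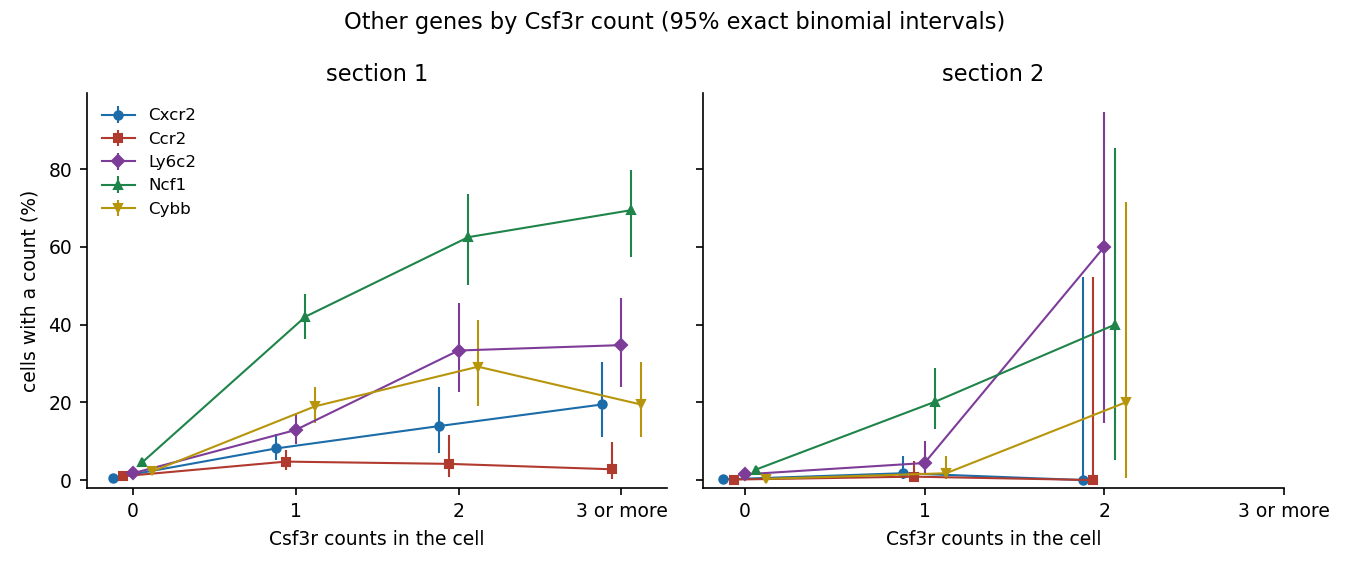
Share of kept cells with a count of each of the other 5 genes, by the number of Csf3r counts in the cell, in section 1 (left) and section 2 (right), with 95% exact binomial intervals. Ncf1 reaches 69.4% at 3 or more Csf3r counts in section 1 while Ccr2 stays under 5%; the single section 2 cell with 3 or more is not drawn.

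Most pairs of section 1, but not all, also lay close together among decoded transcripts without any cell outline. These ratios use all other gene transcripts of the section as reference and, unlike the ratios by cells, are not matched for depth. Pairs with blanks or with other panel genes were not counted this way, and the part of local transcript density was not tested. In section 1, 6.81% of Csf3r transcripts had a Cxcr2 transcript within 5 µm against 0.718% of all other transcripts, a ratio of 9.49, and the ratio was 18.2 within 2 µm and 3.07 within 20 µm. Ncf1 lay within 5 µm of 34.3% of Csf3r transcripts against 5.07% of others, a ratio of 6.76, and Ly6c2 of 116 of the 969 Csf3r transcripts, a ratio of 5.58. For Ccr2 the ratio was 2.70 within 5 µm and 1.64 within 20 µm. In section 2 the 5 µm ratios rested on 39 Csf3r transcripts for Ncf1 (7.62) and 14 for Ly6c2 (5.18). Of the pairs that passed by cells in section 1, those of Ccr2 with Ncf1 (1.49, 0.925 to 2.28) and with Cybb (0.891, 0.327 to 1.94) had 5 µm intervals that held 1. Ncf1 transcripts had Cybb within 5 µm at a ratio of 8.53 in section 1 and 4.34 in section 2.

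**Figure D3:**
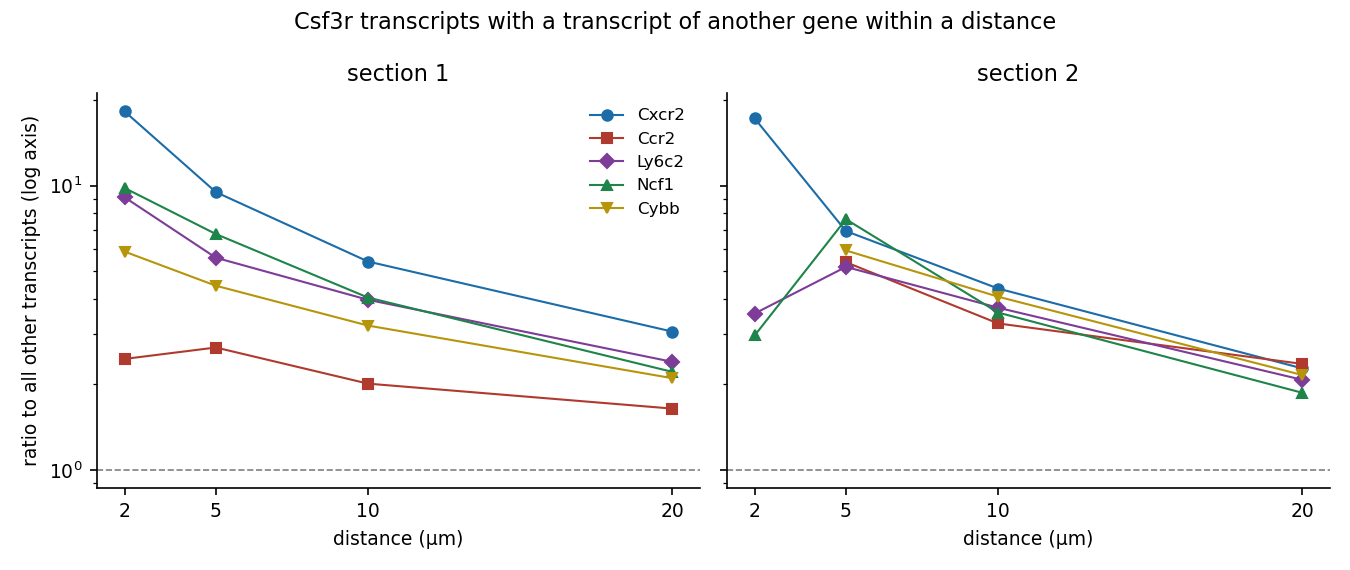
Ratio of the share of Csf3r transcripts with a transcript of the named gene within 2, 5, 10 and 20 µm to that of all other transcripts, on a log axis, for section 1 (left) and section 2 (right). In section 1 the ratio for Cxcr2 falls from 18.2 at 2 µm to 3.07 at 20 µm and Ccr2 is lowest at every distance; the section 2 points at 2 µm rest on 1 to 3 transcripts.

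A cell was put on the neutrophil side if it held Csf3r or Cxcr2 and on the monocyte side if it held Ccr2 or Ly6c2. Section 1 had 487 neutrophil-side and 327 monocyte-side cells, and 111 cells were on both, against 31.5 expected, a ratio of 3.53 (2.90 to 4.25). Section 2 had 147 and 265, with 10 on both against 2.89, a ratio of 3.45 (1.66 to 6.35). Of the cells of the monocyte side alone, 142 of 216 held Ly6c2 and 85 held Ccr2 in section 1. In section 2, 237 of 255 held Ly6c2 and 20 held Ccr2. On the neutrophil side alone, 338 of 376 and 111 of 137 cells held Csf3r in sections 1 and 2. The sides are thus sets of cells by gene, mostly Csf3r against Ly6c2, and not cell types. Cells of both sides in section 1 had a median of 91 counts and a median volume of 1860 cubic µm, against 47 counts and 1511 in cells of the neutrophil side alone, 51 and 1317 in those of the monocyte side alone, and 26 and 1106 in cells with neither. Up to 5 of the 6 genes were found in 1 cell of section 1 (13 cells), and up to 3 in section 2 (8 cells).

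The oxidase genes, which were not used to define the sides, were higher in cells of either side alone than in cells with neither. Raw counts were summed per section and set of cells and fitted over all 417 genes tested with edgeR's quasi-likelihood test, with the section as a blocking term. In section 1 Ncf1 stood at 135 counts per 10000 in cells of the neutrophil side alone, 74.3 in those of the monocyte side alone and 13.2 in cells with neither, with the 4 side genes left out of the totals. In section 2 the same levels were 105, 104 and 15.6. For Cybb they were 36.5, 22.0 and 5.60 in section 1, and 6.36, 5.50 and 1.76 in section 2, where they rest on 2, 3 and 51 counts. Both genes were lowest in cells with neither in both sections.

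Against cells with neither, the log2 change of Ncf1 on the neutrophil side was 2.85 (SE 0.26, edgeR adjusted p = 1.8e-07) and that of Cybb 2.41 (SE 0.33, edgeR adjusted p = 2.4e-05). The fit called 6.71% of genes higher and 6.47% lower in this comparison. On the monocyte side Ncf1 was higher by 2.28 (SE 0.26, edgeR adjusted p = 9.4e-06) and Cybb by 1.59 (SE 0.38, edgeR adjusted p = 0.0065), where 7.19% of genes were called higher and 6.24% lower. Without the section as a replicate block neither gene passed: Ncf1 was at 2.73 (edgeR adjusted p = 0.080) and Cybb at 2.48 (0.57) on the neutrophil side, and at 2.30 (0.54) and 1.70 (0.67) on the monocyte side. With only Ccr2 marking the monocyte side, Ncf1 was at 0.72 (edgeR adjusted p = 0.76) and Cybb at 0.96 (0.76), while with only Ly6c2 they were at 2.46 (1.6e-12) and 1.70 (0.0034). With at least 2 counts of the side genes, the monocyte-side values were 2.20 (edgeR adjusted p = 0.064) and 0.70 (0.64). Over all alternatives the adjusted p ran from 4.3e-36 to 0.080 and 1.1e-10 to 0.57 for Ncf1 and Cybb on the neutrophil side, and from 3.2e-25 to 0.76 and 0.00014 to 0.76 on the monocyte side.

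Cyba, which encodes the membrane partner of the Cybb product, was higher on both sides as well, by 1.62 (SE 0.30, edgeR adjusted p = 0.0011) and 1.59 (SE 0.30, edgeR adjusted p = 0.0013). Of the neutrophil list, 3 of 4 genes tested were called higher on each side: Itgam, which encodes the CD11b integrin chain, Itgb2, which encodes its partner chain, and Cxcr4, which encodes the receptor that holds neutrophils in the marrow. Section 2 gave few counts here. Itgb2 had 7 on the monocyte side alone, at 12.2 per 10000 (4.90 to 25.1) against 7.40 in cells with neither. Cxcr4 had 3 on the neutrophil side alone, at 9.11 (1.88 to 26.6) against 3.17. Both intervals held the level of cells with neither. The neutrophil list's median was 1.70 on the neutrophil side and 1.73 on the monocyte side, beside medians of -0.24 and -0.29 over all genes tested. Of 9 tested adhesion genes 3 were called higher on each side, Itgal, Itgam and Itgb2, with medians of -0.031 and 0.26. None of 5 tested progenitor genes (medians -0.28 and -0.43) and not the 1 tested ligand gene (-0.68 and -0.88) was called on either side. Ly6g, a neutrophil surface protein, was too rare to be tested. It held 4 counts in cells of the neutrophil side alone in section 1, 5 in cells of both sides and none in those of the monocyte side alone. Cells with neither in section 1 held 8 counts, at 0.238 per 10000 (0.103 to 0.47). The intervals there were 0.41 to 3.85 on the neutrophil side alone and 0 to 2.49 on the monocyte side alone. Both overlapped that of cells with neither. In section 2 Ly6g held 1 count on the neutrophil side alone, 0 in cells of both sides and 2 on the monocyte side alone. Its levels were 3.04 per 10000 (0.0769 to 16.9) on the neutrophil side alone and 3.48 (0.422 to 12.6) on the monocyte side alone. Cells with neither held 30 counts, at 1.03 (0.697 to 1.47). These counts are too few to tell whether Ly6g marked the neutrophil side in either section.

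Most cells of either side were not neutrophil_monocyte-like by the other 494 genes (a class described below), and macrophage genes moved with these sets too. That class made up 19.7% of the neutrophil side alone and 14.8% of the monocyte side alone in section 1, and 16.1% and 12.2% in section 2. Hepatocyte-like cells made up 26.1% and 38.0% in section 1, against 44.7% of all kept cells, and 50.4% and 62.0% in section 2, against 69.9%. Of 8 tested genes of the monocyte and macrophage list, 3 were called higher on the neutrophil side: Csf1r, which encodes the receptor for macrophage colony-stimulating factor, Adgre1, which encodes F4/80, and Clec4f, a Kupffer cell lectin. On the monocyte side only Csf1r was called. The median of this list was 1.04 on the neutrophil side and 0.49 on the monocyte side. For the neutrophil side minus the monocyte side, the median was 0.60 for this list and 0.061 for the neutrophil list. The median over all genes tested was -0.018 there, and no gene of either list was called. The names of the sides thus do not follow from these lists. In section 1, 26.6% of the neutrophil side alone and 19.9% of the monocyte side alone were macrophage_kupffer-like by the other genes, against 16.9% of all kept cells. Their part in the levels of Ncf1 and Cybb was not tested.

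Set against each other, the sides differed in 1 called gene, and neither oxidase gene passed. Of 417 genes, that 1 was called higher on the neutrophil side (0.24%) and none higher on the monocyte side by edgeR, with 32 at an unadjusted p under 0.05, and DESeq2 also called 1. The difference of Ncf1 was 0.58 (SE 0.27, edgeR adjusted p = 0.58), from 0.85 in section 1 and 0.00 in section 2. That of Cybb was 0.81 (SE 0.38, edgeR adjusted p = 0.58), and both had an unadjusted p under 0.05. Itgam had 1.15 (SE 0.32, edgeR adjusted p = 0.18) and Clec4f 1.43 (SE 0.43, edgeR adjusted p = 0.18), and neither passed. On simulated sums of this size, 40.5% of genes changed by 1.5 on the log2 scale were recovered, so differences of this size could be missed. These sums had 200 of 417 genes changed, at one set spread, so the share need not hold for the data, where 1 gene was called.

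The 1 gene called was Col1a1, a collagen gene of mesenchymal cells, with a log2 difference of 1.79 (SE 0.29, edgeR adjusted p = 0.0014). It stood at 173 and 42.0 per 10000 in section 1 and 296 and 101 in section 2. Of the cells of the neutrophil side alone, 6.12% and 7.30% were stellate_mesenchymal-like in sections 1 and 2, against 0.926% and 3.53% of those of the monocyte side alone, and the part of these cells in the call was not tested. The call was lost with at least 2 counts of the side genes (2.90, edgeR adjusted p = 0.31), with Csf3r against Ccr2 alone (1.81, edgeR adjusted p = 0.39) and without the replicate block (1.68, edgeR adjusted p = 0.98). Over all alternatives its adjusted p ran from 3.9e-18 to 0.98.

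Itgam was among the 3 panel genes found most often with Csf3r, Ly6c2 and Ncf1, ranked by the lower ratio of both sections. For Csf3r these were Itgam (ratios of 4.11 and 9.43), Ramp1 (3.11 and 6.42) and Thbs1 (3.01 and 3.40). For Ncf1 they were Itgam (4.34 and 8.57), Sorl1 (3.89 and 7.07) and Adpgk (3.66 and 7.02). For Ly6c2 they were Ramp1 (4.66 and 5.96), Srgn (4.04 and 8.19), which encodes the granule proteoglycan serglycin, and Itgam (3.73 and 5.34). Cybb had 13 eligible genes, led by Tkt (1.77 and 2.40), and Cxcr2 and Ccr2 had 7 and 5, led by the abundant hepatocyte gene Hp at ratios near 1 (1.06 and 1.01, and 0.979 and 1.01).

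In section 1 alone, an order added after the data had been seen, Cxcr2 and Cybb had the same leading genes, Itgam, Sorl1 and Adpgk. The ratios were 6.08, 5.56 and 5.29 for Cxcr2 and 4.48, 3.82 and 3.69 for Cybb. Ccr2 had others, Coro2a (17 cells, 5.56), Mpeg1 (19 cells, 3.74) and Ctsc (14 cells, 3.16). Mpeg1 encodes the macrophage pore protein perforin-2 and Ctsc the protease cathepsin C. Such ratios over cells of 1 library share its depth and segmentation, and they are a description.

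Cells were clustered on the other 494 genes, and clusters were named from marker lists, with "-like" marking the name. The neutrophil_monocyte-like class held 624 cells of section 1 (6.78%) and 1133 of section 2 (6.96%) and was led by Adpgk, Itgam, Sorl1 and Itgb2. In section 1 it had the highest level per 10000 counts of 5 genes: Csf3r at 88.7 (76.5 to 102), Cxcr2 at 21.1 (15.4 to 28.3), Ly6c2 at 69.0 (58.3 to 81.1), Ncf1 at 177 (160 to 196) and Cybb at 59.6 (49.7 to 70.9). No other class had an interval that reached these. Ccr2 stood at 8.45 there (5.01 to 13.4), under the 12.1 of the unnamed cells (6.63 to 20.3) and above the 5.96 of macrophage_kupffer-like cells (4.08 to 8.42), with overlapping intervals.

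In section 2 the same class stood out less. Ncf1 stood at 50.9 (40.9 to 62.6) there, above macrophage_kupffer-like cells at 38.1 (lower bound 28.5), with overlapping intervals. Csf3r stood at 11.9 (7.35 to 18.2), beside 11.7 in macrophage_kupffer-like and 11.0 in stellate_mesenchymal-like cells. Ly6c2 stood at 20.9 (14.7 to 28.8), beside 19.8 in macrophage_kupffer-like cells and 26.5 in the 81 B_lineage-like cells, which rest on 4 counts. Cybb stood at 6.22 on 11 counts, Cxcr2 at 2.26 on 4 counts and Ccr2 at 0.566 on 1 count. Csf3r, Ncf1 and Cybb had their highest level in this class in both sections (3 of 6), as did 2.02% of the other 494 genes, which built the clusters. With only cells of at least 20 counts this was so for 1 gene.

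Hepatocyte-like cells gave the background of cells not known for these genes. In section 1, 16.2% of neutrophil_monocyte-like cells held Csf3r against 2.53% of hepatocyte-like cells, with median depths of 19 and 34 counts. For Ncf1 the shares were 23.9% and 4.79%, for Ly6c2 11.5% and 1.65%, and for Cybb 11.7% and 1.75%. In section 2 the shares of Csf3r were 1.77% and 0.509% and those of Ncf1 6.27% and 2.14%, at median depths of 13 and 16. For Ccr2 in section 2 they were 0.0883% and 0.114%, which is no more than background. Hepatocyte-like cells are numerous, and they held 23.2% of all kept Csf3r counts in section 1 and 50.4% in section 2, beside 26.2% and 16.5% in neutrophil_monocyte-like cells.

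**Figure D4:**
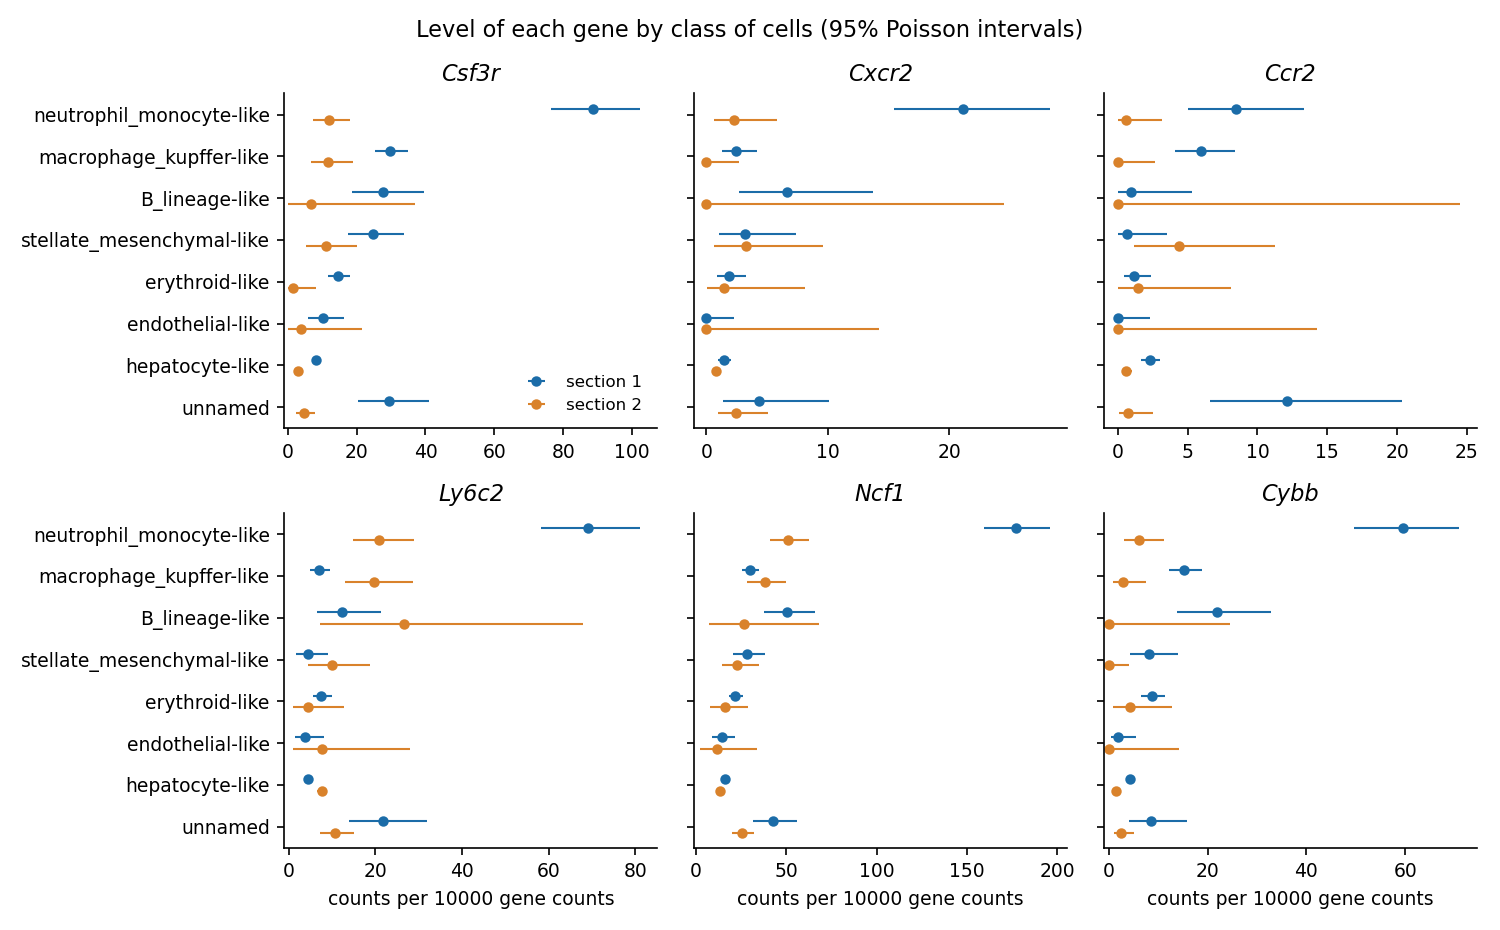
Counts of each gene per 10000 gene counts in the 8 classes of cells, in section 1 (blue) and section 2 (orange), with 95% Poisson intervals; each panel has its own axis. Of the 6 genes, 5 are highest in neutrophil_monocyte-like cells of section 1, and the section 2 levels of that class are lower for all 6.

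By position in the liver lobule none of the 6 genes was called. Cells were scored by the landmark genes of the hepatocyte-like cells around them and split within each section into 3 equal bins, and 36 of 366 genes (9.84%; 6.01% higher and 3.83% lower on the pericentral side) were called between the pericentral and the periportal bin. The level of Ly6c2 was 6.57 per 10000 on the pericentral and 11.5 on the periportal side of section 1, and 8.49 and 9.70 in section 2. Its difference was -0.46 (SE 0.20, edgeR adjusted p = 0.17). With only cells of at least 20 counts it was -0.74 (edgeR adjusted p = 0.020) and passed. Its adjusted p ran from 0.020 to 0.9995 over the alternatives. The share of neutrophil_monocyte-like cells was 4.26% on the pericentral and 6.19% on the periportal side of section 1, and 5.29% and 8.77% in section 2, and its part in the Ly6c2 values was not tested. Cybb was at 9.69 and 7.51 in section 1 and 1.90 and 1.40 in section 2, a difference of 0.37 (SE 0.25, edgeR adjusted p = 0.42). Ncf1 was at 29.4 and 32.7, and 15.2 and 15.7, a difference of -0.11 (SE 0.14). Of the 6 genes, 1 had an unadjusted p under 0.05 by edgeR and 0 were called by DESeq2. Simulated sums of this comparison recovered 96.5% of genes changed by 1.5 on the log2 scale. They had 200 of 366 genes changed, at one set spread, and the share is over all genes. It therefore does not tell how often a change of a rare member, such as Cxcr2 (SE 0.43) or Ccr2 (SE 0.42), would be found.

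Distance to other cells gave no call either. Near against far from erythroid-like cells, 17 of 418 genes (4.07%; 1.91% higher and 2.15% lower near them) were called and 0 of the 6 by edgeR, 0 had an unadjusted p under 0.05 and 0 were called by DESeq2. Ncf1 was at 30.8 and 27.3 in section 1 and 19.8 and 14.5 in section 2, a difference of 0.19 (SE 0.14, edgeR adjusted p = 0.54), and Ccr2 had -0.70 (SE 0.37, edgeR adjusted p = 0.37). Near against far from stellate_mesenchymal-like cells, 1 of 419 genes (0.239%) was called and again 0 of the 6 by edgeR, 0 at an unadjusted p under 0.05 and 0 by DESeq2. Ly6c2 had -0.46 there (SE 0.21, edgeR adjusted p = 0.56), from levels of 6.91 and 11.9 in section 1 and 9.71 and 10.2 in section 2. With the section as a block, the p-values measure how far differences between sets of cells disagreed between the 2 sections. The fits estimate that spread by sharing information over the tested genes. The sections are of unstated origin, so the spread may be technical, and it is not a spread between animals.

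**Figure D5:**
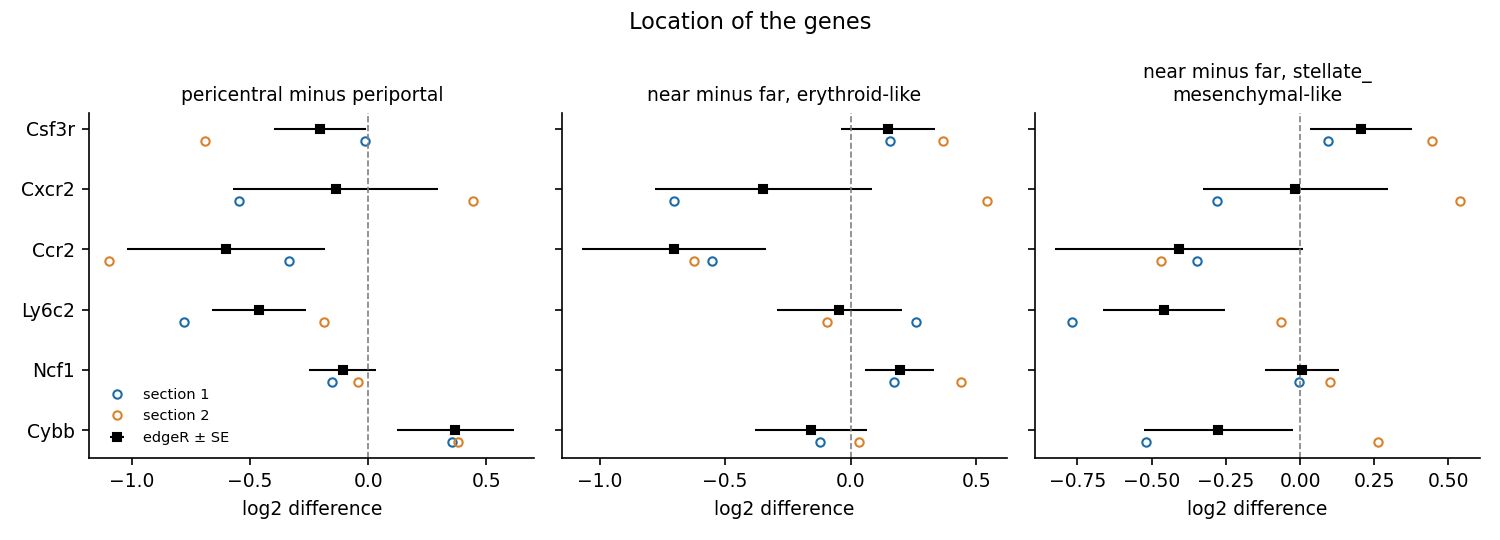
Log2 difference of each gene between bins of cells, by lobule position (left), distance to erythroid-like cells (middle) and distance to stellate_mesenchymal-like cells (right). Black squares are the edgeR estimates with 1 SE, from 6 sums, and open circles the single sections; none of the 6 genes passed in any panel.

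Cells with one of these genes had a neighbour with the same gene within 30 µm more often than other kept cells in section 1. For Csf3r this was 33.7% against 20.3%, a ratio of 1.66, for Ly6c2 23.5% against 11.1%, a ratio of 2.12, and for Cybb the ratio was 2.17. Blank barcodes with at least 20 cells had a median ratio of 1.57 and a highest ratio of 5.83 by the same count. The ratios of the 6 genes, from 1.66 to 2.17, thus lay within the range of barcodes that match no gene, and they are not read as clustering. That range is wide because the highest blank ratio came from only 25 cells, 2 of them with such a neighbour. Blanks with 194 to 258 cells had ratios from 1.12 to 1.92. Ly6c2 and Cybb, with 238 and 286 cells, lay above these, and the other 4 genes did not. In section 2 the ratios of Csf3r, Ly6c2, Ncf1 and Cybb ran from 1.60 to 3.51, those of Cxcr2 and Ccr2 were 0, and 11 blanks had a median of 0 and a highest ratio of 31.2. That highest ratio came from 27 cells, and the blank with the most cells (281) had a ratio of 0.931.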

How the data were processed

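Per the labels' protocols, frozen mouse livers were cut at 10 µm and imaged on Vizgen MERFISH slides. The authors deposited whole-number counts, not normalised, of 500 genes and 50 blanks in each segmented cell, together with volumes, positions and decoded transcripts. No header states a length unit, so µm is an assumption. Which software decoded and segmented the images is not given in the sources used here. The 2 samples form 1 group.

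Cells with at least 10 gene counts and 50 cubic µm were kept, and blanks were left out of totals and tests. Counts of 494 genes, without the 6 members, were scaled to the median total, logged and clustered (30 principal components, 15 neighbours, Leiden at resolution 1; Python 3.11.15, scikit-learn 1.9.0, leidenalg 0.10.2). Clusters correlating at 0.95 were joined and named from at least 3 raised markers with 2 or more among the 10 leading genes, a scoring rule set after its outcome had been seen. No doublet caller was run.

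Expected joint cells were summed over 8 strata of total count. Position was the log2 ratio of Glul, Cyp2e1 and Gulo to Pck1, Ass1 and Hsd17b13 counts in at least 5 hepatocyte-like cells within 50 µm; these landmarks left that fit. Raw counts were summed per section and set of cells, 6 sums a fit with 2 residual degrees of freedom, and genes with at least 50 counts entered edgeR 4.0.16 (TMM factors, quasi-likelihood test, the section as blocking term, Benjamini-Hochberg at 0.05). The SE is the log2 change over the root of its F statistic. Single-section log2 differences are of CPM with a prior count of 2, so both can lie on one side of the estimate. Same-numbered pairing is the section itself, since every section gives a sum to each set. DESeq2 1.42.0 (R 4.3.3) and other settings were alternatives. The fits were tested on simulated data.

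Named genes were the members, up to 3 genes per member with the highest lower ratio and at least 10 joint cells in each section, called genes of the comparison of sides, and listed panel genes. The members and lists were chosen with earlier results of these data known.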

Additional observations from a re-analysis of the deposited data

How the results depend on the processing

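Section 2 cells held a median of 15 counts, and several members lay near the blanks there. The pairs that passed in both sections went from 7 to 4 with cells of at least 20 counts, and, as settings chosen after seeing the data, to 3 in cells at or under the median volume and 0 in neutrophil_monocyte-like cells. The share of pairs with other panel genes was not counted in these settings. Leaving out 1 section gave 7 to 14. The genes highest in neutrophil_monocyte-like cells went from 3 to 0 at resolution 0.5, which has no such class, and to 1 with cells of at least 20 counts. Called genes between the sides went from 1 to 6 with all cells of at least 1 count and 2 without TMM, and to 0 with at least 2 counts of the side genes and with Csf3r against Ccr2. In these 2 cases 29 and 27 genes had an unadjusted p under 0.05. For the neutrophil side against neither, 55 went to 20 with DESeq2, 9 with Csf3r against Ccr2 and 10 with at least 2 side counts. For the monocyte side, 56 went to 28, 0 (20 at an unadjusted p under 0.05) and 13 in the same settings, and Cybb lost its call with DESeq2 (adjusted p = 0.075). Leaving out TMM moved the median of all genes by 0.22 and 0.31 in these comparisons, and by 0.10 near erythroid-like cells. By position 36 went to 6 with DESeq2. Near erythroid-like cells 17 went to 11 with all cells, 54 with 5 bins, 1 with at least 20 counts and 11 at a minimum of 200 counts. Near stellate_mesenchymal-like cells 1 went to 2 with DESeq2. Without section as the replicate block every one of the 6 fits called 0 genes, with 5, 24, 25, 13, 14 and 3 at an unadjusted p under 0.05 in the order above. The causes were not tested. Single sections gave no count of calls, since 1 section leaves no residual degrees of freedom.

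These member values changed sign. By position Cxcr2 went to 0.12 with at least 20 counts and 0.16 at a radius of 100 µm. Near erythroid-like cells Ly6c2 went to 0.027 with DESeq2, 0.32 with all cells, 0.28 with 5 bins, 0.097 at a minimum of 10 counts and 0.068 without TMM. Cybb went to 0.38 with all cells and 0.13 with 5 bins, and Csf3r to -0.035 with 5 bins and -0.12 with at least 20 counts. Near stellate_mesenchymal-like cells Cxcr2 went to 0.055 with DESeq2, 0.035 with 5 bins and 0.058 at resolution 2. Ncf1 went to -0.027, -0.16 and -0.079 in these settings, -0.081 with all cells and -0.025 with at least 20 counts, and Csf3r to -0.012 and -0.045 in the last 2. The log2 ratio of Cxcr2 with Ccr2 went to 0.20 with all cells, and that of Ccr2 with Cybb to -0.19 for transcripts within 5 µm.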
